A study of Mus musculus with 3 samples.

Results

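The genes described here are those of the cytosolic ribosomal proteins, the proteins that together with ribosomal RNA form the machine that translates mRNA. They were chosen by symbol alone (symbols that start with Rps, Rpl or Rplp and a number, and *Rpsa*, without pseudogene symbols and without the Rps6 kinases), which took 86 of the 32285 genes in the count tables. Of these, 77 encode subunit proteins (31 of the small subunit, 43 of the large subunit and the 3 of the P stalk), 8 are paralogs, and *Rps19bp1* encodes a binding partner of a ribosomal protein rather than a ribosomal protein. The symbol rule itself uses no measured value.

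Glomeruli were isolated from kidneys of control mice, of MRL/lpr mice, a strain that carries the lpr mutation of *Fas* and develops lupus nephritis, and of MRL/lpr mice given MSCs, here mesenchymal stem cells of human umbilical cord (hUC-MSCs), and were dissociated for droplet single-cell RNA sequencing. Per the methods, the MRL/lpr and MRL-MpJ mice of the study were females bought at 6 to 8 weeks of age, lupus nephritis was studied at about 16 weeks, 800000 hUC-MSCs were injected into the tail vein, and sampling followed 21 days later. The labels call the controls only a blank control, and the study names MRL/MpJ mice as controls in its other experiments, but the strain behind the control library is not stated in the sources used here, nor is the number of mice pooled into a library. With 1 library per condition, disease, strain and library cannot be told apart, and no test was made, since nothing measures how mice vary. All intervals below are exact 95% intervals, the limit given for a count of 0 is that of 3 counts, and both cover counting error only.

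The libraries held 90812138 to 103319588 UMIs (unique molecular identifiers, which count captured mRNA molecules). Barcodes with at least 1000 UMIs and at most 10% mitochondrial UMIs were kept, which left 11018 in the control, 14109 in the MRL/lpr and 16586 in the MSC-treated library, with medians of 5069, 3716 and 2727 UMIs. Between 35 and 61 kept barcodes were shared by any pair of libraries. Each barcode was placed in the class of which it held the most marker genes, with at least 3 detected and more than 2 times as many as of any other class, and 57.3% to 82.7% of barcodes were placed. No ribosomal protein gene is a marker. Each marker of the endothelial, mesangial or stromal, podocyte, mononuclear phagocyte and T or NK lists was detected in its class in MRL/lpr mice, but none of the 10 genes that set endothelial-like barcodes most apart was on the endothelial list. The mononuclear phagocyte-like class of the control rests on 49 barcodes and the T or NK-like class on 123.

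Most ribosomal proteins are needed in equal number for each ribosome, and their mRNAs carry a run of pyrimidines at the 5′ end (the TOP motif) through which mTORC1 and LARP1 regulate their translation together. Growing and activated lymphocytes are known for a high content of ribosomal protein mRNA, and the last stages of red cell formation and mature neutrophils for a low one. Several ribosomal proteins have a paralog that can take their place, among them RPL22 with RPL22L1, a pair in which RPL22 is known to restrain its paralog, and RPS27 with RPS27L, a p53 target.

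Because many of these mRNAs begin at a TOP motif, the DNA around the annotated start is shown for some of the genes that the results turn on. Each line gives 30 bases of the coding strand (20 before the start and 10 from it, RefSeq, GRCm38.p6), with the letters CTTTC in capitals where they occur. CTTTC is a fixed run of pyrimidines that may lie before the start, so its presence or absence is not that of a TOP motif.
Rpl22l1: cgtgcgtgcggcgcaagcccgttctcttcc
Rps27l: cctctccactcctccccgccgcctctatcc
Rps27: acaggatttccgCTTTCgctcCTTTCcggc
Rpl35: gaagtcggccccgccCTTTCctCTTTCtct
Rpl39: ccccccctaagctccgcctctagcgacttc
Rps15: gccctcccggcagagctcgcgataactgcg
These windows are at chr3:28805488-28805517 (+), chr9:66946066-66946095 (+), chr3:90213639-90213668 (-), chr2:39005122-39005151 (-), chrX:37085213-37085242 (-) and chr10:80292411-80292440 (+). The table of promoters held 78 starts of 66 of the 86 genes, and *Rpl29*, *Rpl23a* and *Rps29* were not in it. CTTTC lay on the coding strand within 30 bases of the start in 32.8% of 67 starts of subunit protein genes and in 7.93% of all 32851 starts. CCGGAA, the core of binding sites of ETS factors, was found on either strand in 49.3% and 14.9%. This search covered 300 bases, of which 250 lie before the start. The windows of *Rpl22l1* and *Rps27l*, both paralogs, and of *Rpl39* and *Rps15* held no CTTTC, so among the windows printed here the letters were present in genes that were higher in MRL/lpr mice (*Rps27*, *Rpl35*) and absent both in genes that were higher and in *Rps15*, which was lower.

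The share of all UMIs that came from ribosomal protein genes differed several-fold between cell classes, and among the classes compared T or NK-like barcodes were highest in every library. In the control library it was 22.5% (22.4 to 22.7) in T or NK-like, 14.7% (14.5 to 14.8) in mononuclear phagocyte-like, 10.3% (10.3 to 10.4) in endothelial-like, 7.55% (7.54 to 7.56) in podocyte-like and 6.10% (6.07 to 6.13) in mesangial or stromal-like barcodes. Neutrophil-like barcodes had 2.16% (2.02 to 2.31) and erythroid-like barcodes 0.357% (0.348 to 0.366). T or NK-like barcodes were therefore 2.18 times as high as endothelial-like ones in the control, 1.93 times in MRL/lpr and 1.99 times in MSC-treated mice. Among the 9 classes plotted, T or NK, mononuclear phagocyte and endothelial led in this order in all 3 libraries. The few B or plasma-like barcodes (10, 8 and 12), which were not ranked, had 20.1%, 33.6% and 23.6%. Proximal tubule-like, distal nephron-like, podocyte-like and mesangial or stromal-like barcodes followed in an order that changed between libraries.

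**Figure D1:**
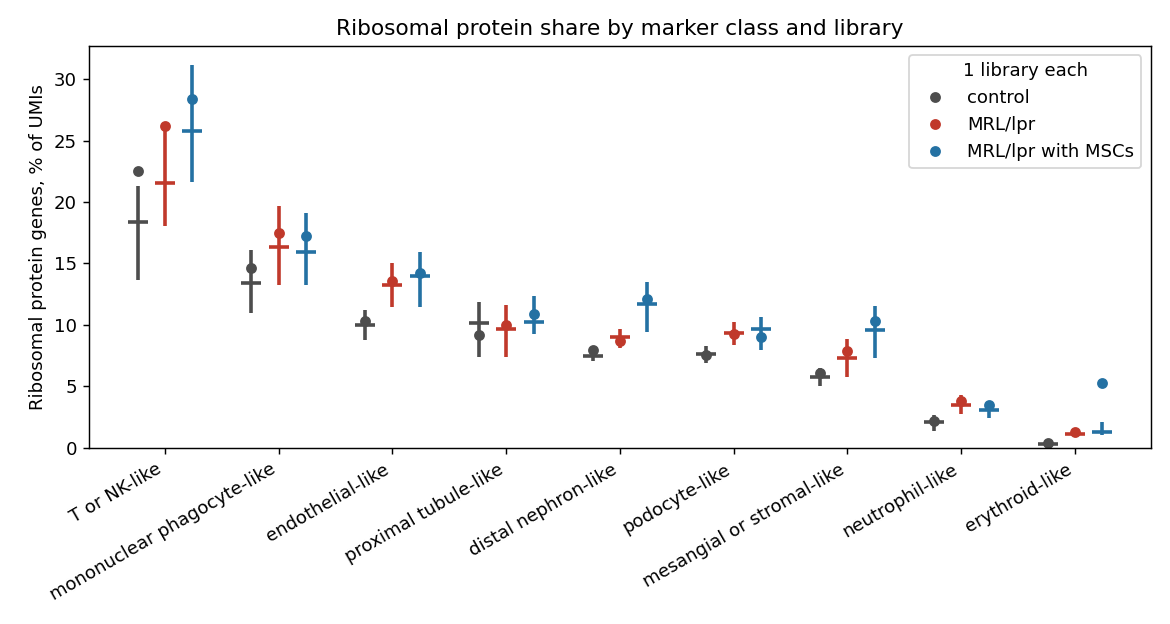
Ribosomal protein genes as a percentage of UMIs (vertical axis) in 9 marker classes for the control, MRL/lpr and MSC-treated libraries. Points give the summed UMIs of a class, short bars the median barcode and vertical lines the middle 50% of barcodes; T or NK-like barcodes are highest, and erythroid-like and neutrophil-like ones lowest.

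Both subunits made up this share in similar parts. In endothelial-like barcodes of MRL/lpr mice the small subunit genes gave 5.87% of UMIs, the large subunit genes 7.10%, the P stalk 0.367% and the paralogs 0.212%, against 4.48%, 5.46%, 0.294% and 0.109% in the control. The paralogs, of which *Rpl22l1*, *Rpl36al* and *Rps27l* gave most UMIs, thus had the largest relative difference of these groups.

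In MRL/lpr mice the ribosomal protein share was above that of the control in all 5 classes compared. Endothelial-like barcodes had 13.6% (13.5 to 13.6) against 10.3%, a log2 ratio of 0.39 (0.39 to 0.39, 1.31-fold; 3997 against 5641 barcodes). Mesangial or stromal-like barcodes had 7.86% against 6.10% (log2 ratio 0.36, 0.36 to 0.37), and podocyte-like barcodes 9.22% against 7.55% (0.29, 0.28 to 0.29). The difference was smaller in mononuclear phagocyte-like (17.5% against 14.7%; 0.26, 0.24 to 0.27) and T or NK-like barcodes (26.2% against 22.5%; 0.22, 0.21 to 0.23).

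The share was also higher in droplets without a cell. Barcodes of 1 to 100 UMIs, which carry free RNA, had 8.76% in the control, 11.7% in MRL/lpr and 12.3% in MSC-treated mice, a log2 ratio of 0.42 (0.42 to 0.43) for MRL/lpr over control, above that of endothelial-like barcodes. Mitochondrial UMIs moved the other way, with 2.83% of the UMIs of endothelial-like barcodes in the control and 2.09% in MRL/lpr mice. Depth and erythroid RNA moved too. The median endothelial-like barcode had 4305 UMIs in the control and 3805 in MRL/lpr mice, and the 7 erythroid markers summed to 2006 UMIs in 1000000 in the control and 961 in MRL/lpr mice. Their part in the difference was not tested. With mitochondrial UMIs left out of the total the log2 ratio of endothelial-like barcodes was 0.38. That of droplets without a cell is given only with these UMIs in the total. Mitochondrial UMIs differed more between the libraries in those droplets, so the order of the 2 ratios holds for that total only.

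Within a class the share rose with depth in most classes. In endothelial-like barcodes of the control it was 8.21% at 1000 to 2000 UMIs and 11.1% at 8000 or more, in MRL/lpr mice 10.8% and 14.1%, and in MSC-treated mice 12.1% and 14.9%. MRL/lpr mice were above the control in each depth range of this class, of mesangial or stromal-like and of podocyte-like barcodes. In mononuclear phagocyte-like and T or NK-like barcodes it was above the control up to 8000 UMIs and below it at 8000 or more (18.9% against 19.2%, and 24.5% against 28.3%), where the control had 5 barcodes in each class. T or NK-like barcodes of MRL/lpr mice went from 26.0% at 2000 to 4000 UMIs to 37.0% at 4000 to 8000 UMIs (270 and 61 barcodes). Podocyte-like barcodes had 9.56% and 9.06% at the ends of the range in MRL/lpr mice, without such a course. In barcodes of 4000 to 8000 UMIs only, the log2 ratio of MRL/lpr over control was 0.42 in endothelial-like barcodes.

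**Figure D2:**
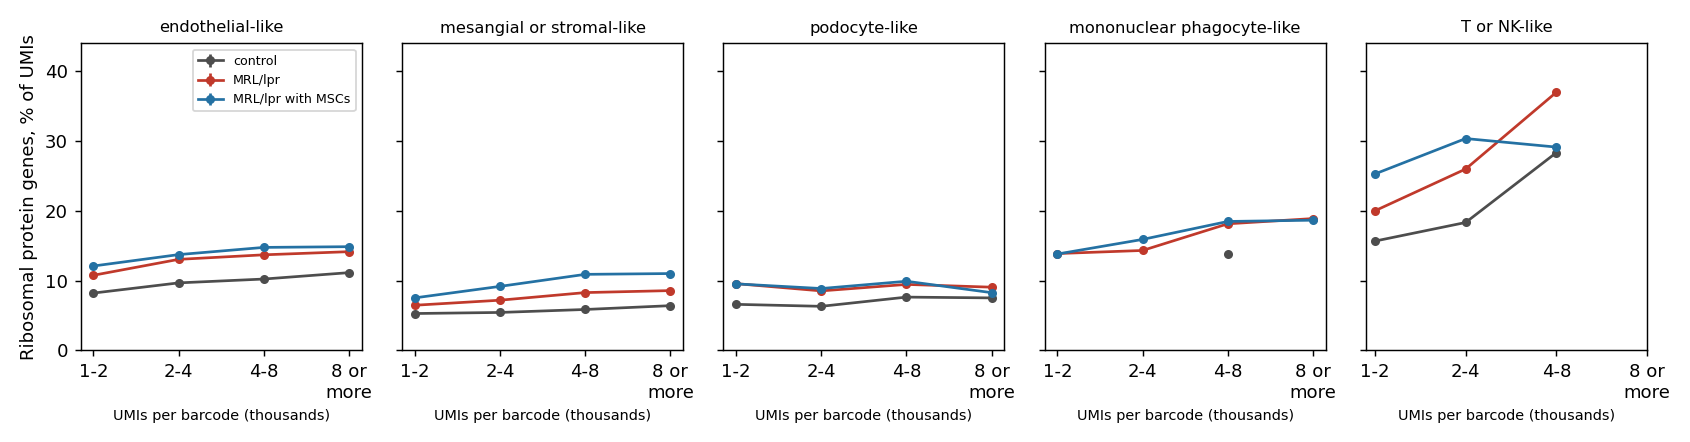
Ribosomal protein genes as a percentage of UMIs (vertical axis) by UMIs per barcode (horizontal axis, in bins) in 5 classes, with 1 line for each library and bins of at least 20 barcodes. Bars are exact 95% intervals of counting error; in endothelial-like barcodes the control line runs from 8.21% to 11.1% and lies below both others throughout.

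The methods of the study exclude cells with over 5% ribosomal genes. They do not say which genes or counts this percentage uses, and the limit is set here on the UMI share. The measures may differ, since the study reports endothelial cells, macrophages and T cells as the most abundant types in MRL/lpr glomeruli. Few endothelial-like or T or NK-like barcodes were at or under 5% by the UMI share. Of all kept barcodes, 7.44% in the control, 6.22% in MRL/lpr and 3.47% in MSC-treated mice were at or under 5%, and they were of particular kinds. Erythroid-like and neutrophil-like barcodes made up 46.7% of the 820 such barcodes in the control, 42.0% of 878 in MRL/lpr and 36.3% of 575 in MSC-treated mice, while they were 3.49%, 2.74% and 1.38% of all kept barcodes. Nearly every erythroid-like barcode met the limit (363 of 364, 254 of 256 and 132 of 146), as did 20 of 20, 115 of 131 and 77 of 83 neutrophil-like ones. Of mesangial or stromal-like barcodes 23.6% (19.8 to 27.8), 14.2% (11.7 to 17.0) and 8.29% (6.37 to 10.6) did. Endothelial-like barcodes met it in 0.815% (0.598 to 1.09), 0.976% (0.695 to 1.33) and 1.36% (1.06 to 1.72), and T or NK-like barcodes in 0 of 123, which allows a share of up to 2.44%, in 2 of 673 and in 1 of 489. After each barcode was thinned to 1000 UMIs, the shares were 1.06%, 1.15% and 1.60% in endothelial-like and 28.7%, 15.8% and 8.29% in mesangial or stromal-like barcodes.

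Erythroid-like barcodes, which held almost only globin mRNA (the erythroid markers summed to 957368 UMIs in 1000000 in the control), had a ribosomal protein share of 0.357%, 1.27% and 5.25% in control, MRL/lpr and MSC-treated mice. In the MSC-treated library this sum was set by few barcodes, since the median barcode had 1.26%, against 1.13% in MRL/lpr and 0.330% in control mice.

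Single genes did not move in step. In endothelial-like barcodes 84 of the 86 genes had at least 50 UMIs over both libraries. Their median log2 ratio of MRL/lpr over control was 0.33, beside 0.03 for all 13129 genes tested, and 68 were above 0 and 16 below. Past 2-fold, *Rpl22l1*, *Rpl29*, *Rps27l*, *Rpl35* and *Rpl39* were higher and *Rpl23a* was lower. That is 5 of 84 higher, where 8.89% of all genes were, and 1 of 84 lower, where 4.74% were, so members were not past 2-fold more often than other genes. The interval of *Rpl39* (1.00 to 1.03) and of *Rpl35* (1.00 to 1.04) reached the limit, and *Rps29* (0.99), *Rpl37a* (0.96) and *Rps27* (0.96) lay just under it.

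**Figure D3:**
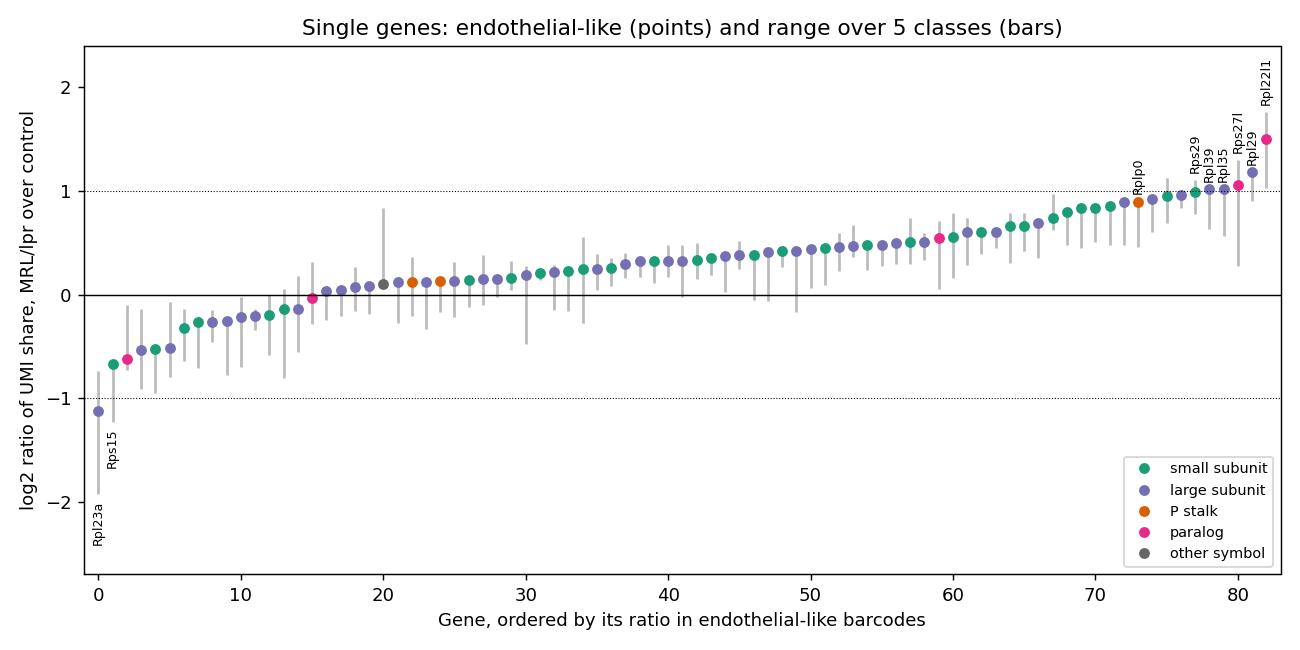
Log2 ratio of the UMI share, MRL/lpr over control (vertical axis), of the 83 genes with enough UMIs in all 5 classes, ordered by the ratio in endothelial-like barcodes. Coloured points are endothelial-like barcodes, by role, grey bars span the lowest to the highest of 5 classes, and dotted lines mark 2-fold; *Rpl22l1* and *Rpl23a* lie at the ends.

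*Rpl22l1* (ENSMUSG00000039221, chromosome 3, 28805436 to 28807424, GRCm38) stood highest. It had 341 CPM (UMIs of the gene per 1000000 UMIs of the class) in endothelial-like barcodes of the control, 963 in MRL/lpr and 772 in MSC-treated mice (9974, 18629 and 15811 UMIs). MRL/lpr was highest and the control lowest, and MRL/lpr over control came to a log2 ratio of 1.498 (1.462 to 1.533, 2.82-fold). The ratio was 1.76 (1.63 to 1.89) in mesangial or stromal-like, 1.33 (1.27 to 1.38) in podocyte-like, 1.32 (1.05 to 1.61) in mononuclear phagocyte-like and 1.03 (0.87 to 1.20) in T or NK-like barcodes, and 1.46 in empty droplets.

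Its partner *Rpl22* differed less, with 942, 1179 and 1415 CPM in endothelial-like barcodes of control, MRL/lpr and MSC-treated mice. *Rpl22l1* therefore gave 26.6% (26.1 to 27.0) of the UMIs of the pair in the control, 45.0% (44.5 to 45.4) in MRL/lpr and 35.3% (34.9 to 35.8) in MSC-treated mice. The same order held in each of the other classes compared. Mesangial or stromal-like barcodes had 25.9%, 46.0% and 35.3%, and podocyte-like barcodes 32.3%, 51.1% (50.2 to 52.1) and 48.8% (46.4 to 51.1), where the intervals of the MRL/lpr and MSC-treated libraries overlapped. Mononuclear phagocyte-like barcodes had 25.3%, 41.1% and 39.2%, and T or NK-like barcodes 27.7%, 41.0% and 35.1%. Proximal tubule-like barcodes (41, 386 and 36) had 16.2%, 27.4% and 21.8%.

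**Figure D4:**
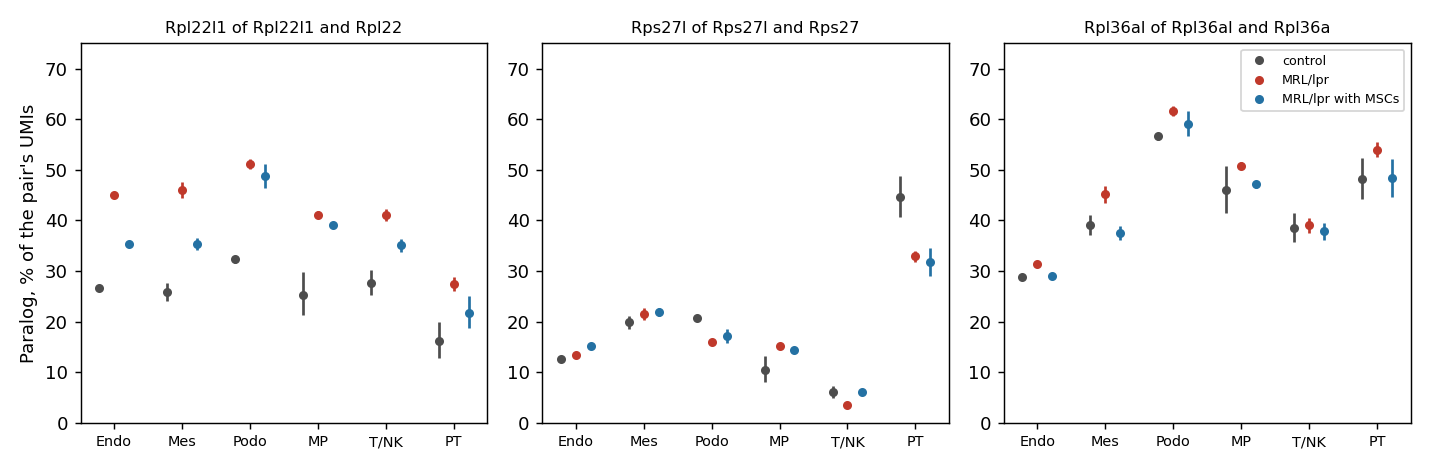
Paralog as a percentage of the UMIs of the paralog and its partner (vertical axis) for Rpl22l1, Rps27l and Rpl36al in endothelial-like (Endo), mesangial or stromal-like (Mes), podocyte-like (Podo), mononuclear phagocyte-like (MP), T or NK-like (T/NK) and proximal tubule-like (PT) barcodes. Points are libraries and bars exact 95% intervals of counting error; for Rpl22l1 the control is lowest in each class, with 26.6% in endothelial-like barcodes.

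*Rps27l* (chromosome 9, 66946086 to 66949516) had 249 CPM in endothelial-like barcodes of the control, 519 in MRL/lpr and 611 in MSC-treated mice, a log2 ratio of MRL/lpr over control of 1.06 (1.015 to 1.102). Across classes its ratio ran from 0.28 in T or NK-like to 1.30 in mononuclear phagocyte-like barcodes. Since *Rps27* was higher as well (1739, 3371 and 3432 CPM in endothelial-like barcodes), the part of *Rps27l* in the pair changed little there, from 12.5% to 13.3% and 15.1%, and in podocyte-like barcodes it was lower in MRL/lpr (15.9%) than in control mice (20.6%). The part of this gene differed more between cell classes than between libraries. *Rps27l* gave 44.7% (40.7 to 48.8) of the pair in proximal tubule-like barcodes of the control (41 barcodes) and 32.9% in those of MRL/lpr mice, but 6.10% and 3.49% in T or NK-like barcodes.

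*Rpl36al*, the paralog of *Rpl36a*, also followed cell class. It gave 28.8%, 31.4% and 28.9% of its pair in endothelial-like barcodes of control, MRL/lpr and MSC-treated mice and 56.6%, 61.6% and 59.1% in podocyte-like ones. Of the 91-base stretches in the last 400 bases of its transcript 74.8% recur in other genes' transcripts, and those of *Rpl36a* and *Rpl36al* can be split by the counting, so these levels are uncertain.

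Of the remaining paralogs, *Rpl10l*, a testis paralog, had 0 UMIs in each of these classes, but 131 in empty droplets of the control (20.4 CPM) against 0 in those of the other libraries. *Rpl3l*, known from heart and skeletal muscle, had 1, 19 and 29 UMIs in endothelial-like barcodes of control, MRL/lpr and MSC-treated mice (log2 ratio of MRL/lpr over control 4.84, 2.19 to 10.2), too few to have entered the count of genes past 2-fold. In empty droplets it had 0.466, 9.72 and 13.8 CPM, above its 0.0342, 0.982 and 1.42 CPM in endothelial-like barcodes, with a log2 ratio of MRL/lpr over control of 4.38, and the part of free RNA was not tested. In mononuclear phagocyte-like barcodes it had 4, 282 and 440 UMIs (15.9, 37.7 and 41.2 CPM). An *Rpl3l* UMI was held by 4 of 49 of them in the control, 14.0% in MRL/lpr and 12.8% in MSC-treated mice, at medians of 4799, 4644 and 3251.5 UMIs, and by 0.475% and 0.533% of endothelial-like barcodes of MRL/lpr and MSC-treated mice, at medians of 3805 and 2994 UMIs. Of neutrophil-like barcodes 1 of 20 held such a UMI in the control, 9 of 131 in MRL/lpr and 11 of 83 in MSC-treated mice. Their levels were 26.8, 38.5 and 72.5 CPM, at medians of 1258.5, 1713 and 1657 UMIs. *Rps27rt* had 48.5, 47.5 and 45.7 CPM in endothelial-like barcodes, and *Rpl7l1*, which acts in making the large subunit, had 85.4, 55.3 and 56.2.

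*Rpl39l*, the paralog of *Rpl39*, was sparse in cells and higher in empty droplets than in any of the 5 classes. Empty droplets held 139, 331 and 380 of its UMIs in control, MRL/lpr and MSC-treated mice (21.6, 115 and 122 CPM), and endothelial-like barcodes 23, 29 and 14 (0.787, 1.4995 and 0.684 CPM). T or NK-like barcodes of MSC-treated mice held 67 of its UMIs, in 36 of 489 barcodes (7.36%, 5.21 to 10.0), with at most 5 UMIs in a barcode. Those of MRL/lpr mice held 0 in 673 barcodes, which allows a share of up to 0.446%, and those of the control 2 in 123. Against the limit of 3 UMIs in the MRL/lpr library, the level in MSC-treated mice was 32.9-fold and that in the control 2.45-fold. These folds leave out the counting error of the 67 and 2 UMIs. Endothelial-like barcodes of MSC-treated mice, with a median of 2994 UMIs against 1750 in T or NK-like ones, held an *Rpl39l* UMI in 14 of 5065 (0.276%). At 62.9 CPM the T or NK-like level of MSC-treated mice lay below that of the empty droplets of the same library, and the part of free RNA in it was not tested.

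Among subunit proteins in endothelial-like barcodes, the highest ratios of MRL/lpr over control belonged to the large subunit genes *Rpl29*, *Rpl35* and *Rpl39*. *Rpl39* (chromosome X, 37082520 to 37085402), which lines the exit tunnel, had 1718, 3474 and 4198 CPM in endothelial-like barcodes of control, MRL/lpr and MSC-treated mice. *Rpl35*, at the mouth of the tunnel, had 971, 1971 and 2313. For both genes the control was lowest and the MSC-treated library highest. *Rpl29* had 96.4, 218 and 263, a log2 ratio of MRL/lpr over control of 1.18 (1.11 to 1.25). Its ratio in empty droplets was 0.01, while those of *Rpl35* (0.89) and *Rpl39* (1.07) were close to the endothelial-like ones.

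Of the 5 genes with the highest level in endothelial-like barcodes of MRL/lpr mice, 2 lay near 2-fold and 3 did not. *Rps29* had 2578, 5125 and 5546 CPM, and *Rpl37a* had 2069, 4030.3 and 4572. *Rps24* had 3246, 4103 and 4600.1, *Rpl37* had 3195, 3929.8 and 4856, and *Rpl41* had 3386, 3703 and 3479. Levels are not corrected for transcript length and are not compared between these genes.

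A group of genes was lower in MRL/lpr mice. *Rpl23a* (chromosome 11, 78180932 to 78183584), which sits at the tunnel exit and contacts the signal recognition particle, had 579.6, 266 and 320.5 CPM in endothelial-like barcodes of control, MRL/lpr and MSC-treated mice. Here the control was highest and MRL/lpr lowest, with a log2 ratio of MRL/lpr over control of -1.12 (-1.17 to -1.08). It was -0.74, -1.05, -1.38 and -1.92 in mesangial or stromal-like, podocyte-like, mononuclear phagocyte-like and T or NK-like barcodes and -0.63 in empty droplets. *Rps15* had 733, 462 and 531 CPM in endothelial-like barcodes (-0.67, -0.70 to -0.63) and was past 2-fold lower in T or NK-like barcodes (-1.23). *Rpl5*, which binds 5S rRNA and holds back MDM2, had 439.8, 304 and 352.

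**Figure D5:**
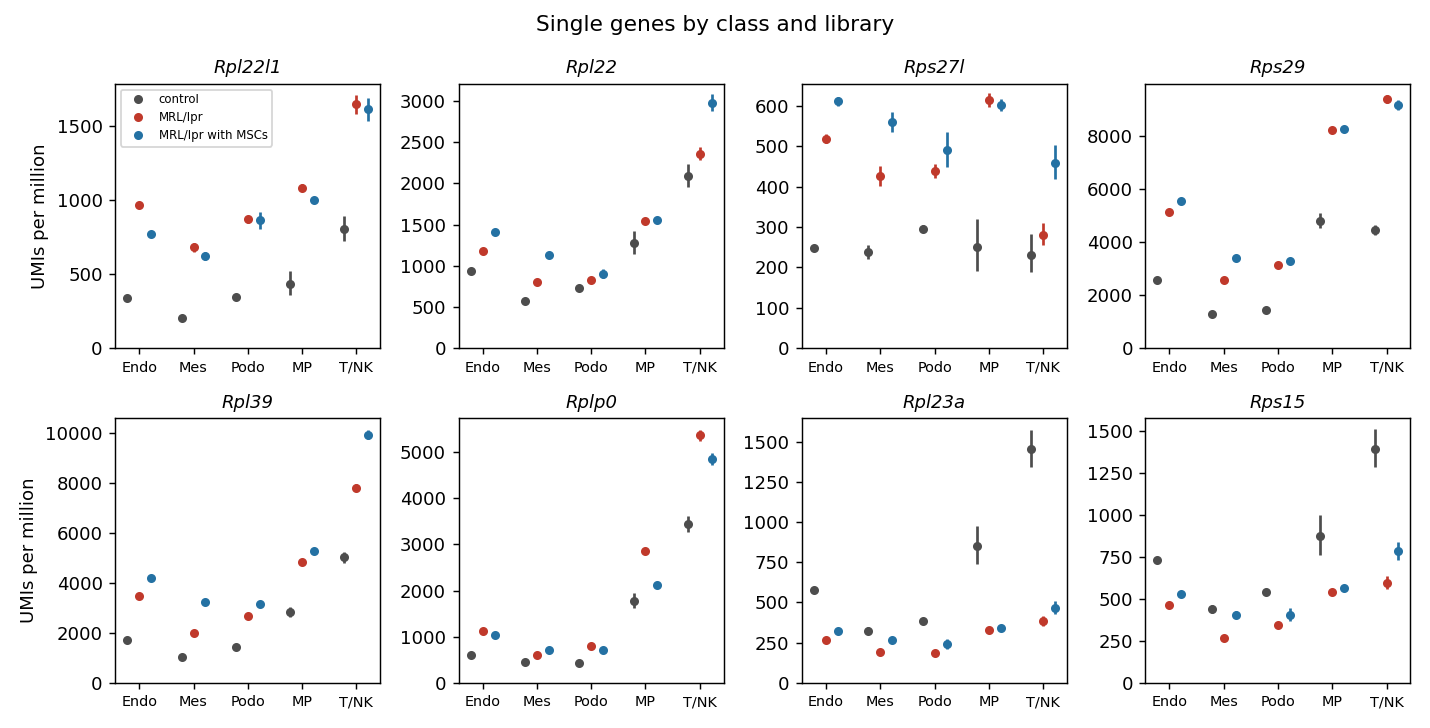
CPM (vertical axis, from 0) of 8 genes in endothelial-like (Endo), mesangial or stromal-like (Mes), podocyte-like (Podo), mononuclear phagocyte-like (MP) and T or NK-like (T/NK) barcodes. Points are libraries and bars exact 95% intervals of counting error; *Rpl22l1* is 341 in endothelial-like barcodes of the control and 963 in MRL/lpr mice, whereas *Rpl23a* is 579.6 and 266.

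These differences recurred from class to class. Of 83 genes with enough UMIs in all 5 classes, 47 (56.6%) were higher in MRL/lpr mice in each class and 13 (15.7%) lower in each, where 16.2% and 18.8% of all 4436 such genes were. The genes lower in each class included *Rpl5*, *Rpl10*, *Rpl12*, *Rpl13a*, *Rpl14*, *Rpl17*, *Rpl23a*, *Rpl7l1*, *Rps12*, *Rps14*, *Rps15* and *Rps26*, which were listed after their values were seen. Over the 77 subunit proteins the median range between classes was 0.37 on the log2 scale, and the SD of the genes' medians was 0.41. Pearson's r between the ratios of endothelial-like barcodes and those of the other classes was 0.92 to 0.97 across these 77 genes, which are not replicates and come from the same pair of libraries, and 0.84 with empty droplets.

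Counts of genes past 2-fold in the other classes were as small. In mesangial or stromal-like barcodes *Rpl22l1* was the 1 gene of 83 past 2-fold higher and 0 were lower (all genes, 5.75% and 4.9%). In podocyte-like barcodes *Rpl22l1*, *Rpl29*, *Rps27* and *Rps29* were higher and *Rpl23a* lower (6.5% and 5.15%), a call that *Rpl23a* lost with a stricter gate and with the median of all genes set to 0. In mononuclear phagocyte-like barcodes *Rpl22l1*, *Rps27l* and *Rpl3l* were higher and *Rpl23a* lower (15.1% and 9.35%). The call of *Rpl3l* there rests on only 4 UMIs in the 49 barcodes of the control. In T or NK-like barcodes *Rpl22l1*, *Rpl29*, *Rps27* and *Rps29* were higher and *Rpl23a* and *Rps15* lower (7.41% and 4.84%). The members' median was 0.32, 0.21, 0.24 and 0.18 in these classes, beside -0.08, -0.10, -0.03 and -0.06 for all genes.

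Some of these genes have near copies elsewhere in the genome, and their reads can be split or dropped. Of the 91-base stretches in the last 400 bases of the *Rpl23a* transcript 83.5% recur in transcripts of other genes (GENCODE M21). So do 100% for *Rpl10*, 77.7% for *Rpl35*, 98.4% for *Rps27*, 41.6% for *Rpl22l1* and 36.8% for *Rpl29*. The levels of these genes are therefore uncertain. By contrast 6.13% recur for *Rpl39*, 3.23% for *Rps27l*, 16.8% for *Rps15* and 0% for *Rpl37a*. The median log2 ratio of MRL/lpr over control in endothelial-like barcodes was 0.38 in the 30 subunit protein genes with at least 50% of stretches shared and 0.32 in the other 47. Of the 5 pseudogene symbols of the files, *Rpl10-ps3* had 446, 167 and 191 UMIs in endothelial-like barcodes of control, MRL/lpr and MSC-treated mice, a log2 ratio of MRL/lpr over control of -0.82, where *Rpl10* itself had -0.26, while *Rpl9-ps6* (695, 533 and 558 UMIs) had 0.21 and *Rpl36a-ps1* (118, 91 and 96 UMIs) had 0.22.

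In MSC-treated over untreated MRL/lpr mice, mesangial or stromal-like barcodes stood out among the 5 classes compared. Their share was 10.3% (10.3 to 10.4) against 7.86%, a log2 ratio of 0.39 (0.39 to 0.40; 712 and 690 barcodes), at medians of 3344 and 3295 UMIs. Of their 83 genes 81 were above 0, with a median of 0.36, beside 0.13 over all 9106 genes, of which 62.3% were above 0. No single gene was past 2-fold in either direction, where 2.7% of all genes were higher and 3.35% lower. *Rpl29* (0.72), *Rpl39* (0.70), *Rps21* (0.66) and *Rps28* (0.64) had the highest ratios, and *Rpl22l1* had -0.14. The few distal nephron-like barcodes (31 and 70), outside these classes, had 12.1% against 8.71%, a log2 ratio of 0.48 (0.46 to 0.50).

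In endothelial-like barcodes the same comparison gave 14.3% (14.2 to 14.3) against 13.6%, a log2 ratio of 0.07 (0.07 to 0.07). That of empty droplets was 0.07 too, with mitochondrial UMIs left in both totals. The members' median of 0.02 was below the 0.12 of all 13071 genes, and 0 members were past 2-fold (all genes, 4.31% higher and 3.2% lower). *Rps28* (0.40), *Rpl6* (0.34), *Rpl38* (0.33), *Rpl37* (0.31) and *Rpl39* (0.27) were highest and *Rpl3* (-0.34), *Rpl22l1* (-0.32), *Rpsa* (-0.25), *Rpl8* (-0.25) and *Rps19* (-0.23) lowest. T or NK-like barcodes had 28.4% against 26.2% (0.12, 0.11 to 0.12), which turned to -0.34 in barcodes of 4000 to 8000 UMIs (38 and 61 barcodes). Podocyte-like (8.99% against 9.22%; -0.04) and mononuclear phagocyte-like barcodes (17.2% against 17.5%; -0.02) were slightly lower, and both changed sign in barcodes of 4000 to 8000 UMIs (0.07 and 0.03). *Rpl22l1* was the 1 of 83 members that was lower in each of the 5 classes, although its interval included 0 in podocyte-like (-0.12 to 0.09) and T or NK-like barcodes (-0.12 to 0.06), and 17 members (20.5%) were higher in each. Of all 5021 genes with enough UMIs in all 5 classes, 11.3% were lower and 7.95% higher in each.

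MSC-treated mice were also above the control, the library that this comparison shares with that of MRL/lpr over control. In endothelial-like barcodes 8 members were past 2-fold higher (*Rpl22l1*, *Rpl29*, *Rpl35*, *Rpl37a*, *Rpl39*, *Rps27l*, *Rps28* and *Rps29*) and 0 lower, where 13.3% and 5.55% of all genes were. Mesangial or stromal-like barcodes had 17 of 83 higher and 0 lower, where 8.58% and 6.08% of all genes were, at a log2 ratio of the share of 0.76 (0.75 to 0.77). *Rpl39* had 1022, 1986 and 3228 CPM in mesangial or stromal-like barcodes of control, MRL/lpr and MSC-treated mice, *Rps28* had 653, 1277 and 1986, and *Rps29* had 1302, 2550.1 and 3389. In each of them the control was lowest and the MSC-treated library highest.

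The P stalk proteins, which recruit elongation factors to the ribosome, differed from each other. *Rplp0*, the base of the stalk, had 605, 1127 and 1045 CPM in endothelial-like barcodes of control, MRL/lpr and MSC-treated mice, a log2 ratio of MRL/lpr over control of 0.90 (0.87 to 0.93). The side proteins *Rplp1* and *Rplp2* had ratios of 0.12 and 0.13. *Rplp0* also set cell classes apart. Relative to the median of the subunit proteins in the same barcodes it was at 0.78 on the log2 scale in T or NK-like and 0.41 in mononuclear phagocyte-like barcodes of MRL/lpr mice, but at -0.50 in endothelial-like ones.

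Relative to the median of the subunit proteins, other genes were low in T or NK-like barcodes. On the same relative scale *Rps19bp1* was at -3.49 in podocyte-like and -6.54 in T or NK-like barcodes of MRL/lpr mice, *Rpl7l1* at -3.83 and -6.34, and *Rpl10* at 0.04 and -1.97. *Rps27l* was at -0.42 in proximal tubule-like and -3.47 in T or NK-like barcodes. These genes had the largest ranges across classes among the members described here with at least 5 UMIs in each. For all of them T or NK-like barcodes were lowest on this scale, also in the control and MSC-treated libraries. The ribosomal protein share was highest in these barcodes among the classes compared, so a low value on this scale need not be a low CPM.

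In endothelial-like barcodes the medians of other parts of the translation machinery lay closer to that of all genes than those of the ribosomal proteins did. Small subunit genes had a median log2 ratio of MRL/lpr over control of 0.39 (25 of 31 above 0) and large subunit genes of 0.32 (35 of 43 above 0), with 0.03 for all genes, of which 52.1% were above 0. *Fau* and *Rack1*, ribosomal proteins that the symbol rule does not take, had ratios of 0.24 and 0.10. Elongation factors had a median of 0.18 (6 of 8 above 0), with 0.17 for *Eef1a1*, 0.20 for *Eef1b2* and -0.40 for *Eef2*. Initiation factors had -0.02 (14 of 30 above 0), led in level by *Eif1*, with 3419 CPM in the control, 2875 in MRL/lpr and 2026 in MSC-treated mice. Other mRNAs known to carry the TOP motif had 0.09 (13 of 21 above 0), with 0.09 for *Tpt1*, and mitochondrial ribosomal proteins 0.06 (48 of 78 above 0). None of the 8 elongation factors, 30 initiation factors or 21 TOP mRNAs was past 2-fold, where 8.89% of all genes were higher and 4.74% lower.

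Ribosome biogenesis genes had a median below 0, at -0.19 (15 of 27 below 0), and of them *Myc* was past 2-fold higher and 0 lower, where 8.89% and 4.74% of all genes were. The ratio was 0.28 for *Npm1*, 0.17 for *Nop10* and -0.55 for *Ncl*, which encodes nucleolin. In MSC-treated over control mice their median was -0.30, and *Ncl* had 317, 217 and 166 CPM in control, MRL/lpr and MSC-treated mice. Genes of mTORC1 and TOP regulation had a median of 0.17 for MRL/lpr over control, with 0.17 for *Rheb*, the activator of mTORC1, and 0.45 for *Larp1*, which was chosen after its values were seen. Of 11 genes of ribosome stress and p53, the pathway that *Rps27l* belongs to, 9 were above 0 and *Phlda3*, *Zmat3* and *Eda2r* were past 2-fold higher, with a median of 0.43, where 52.1% of all genes were above 0 and 8.89% past 2-fold higher. *Zfas1* was lower (log2 ratio -0.22, -0.31 to -0.13), and the interval of *Mdm2* included 0 (0.04, -0.07 to 0.14). *Cdkn1a* had 801, 1002 and 438 CPM in endothelial-like barcodes of control, MRL/lpr and MSC-treated mice and *Phlda3* had 43.2, 100.003 and 111. In MSC-treated over MRL/lpr mice *Cdkn1a* thus had a log2 ratio of -1.20 (-1.23 to -1.16), while *Rps27l* had 0.24 (0.20 to 0.27).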

How the data were processed

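The authors isolated glomeruli with collagenase V, gradient centrifugation and differential adhesion, dissociated them, captured about 8000 cells in droplets and processed reads with Cell Ranger and STAR on mm10, per the labels. The deposited count matrices hold whole UMI counts per gene and barcode, unfiltered. Their headers name Cell Ranger 4, whereas the protocol names version 1.1.0. The limits of the study (200 to 3000 genes, at most 10% mitochondrial and 5% ribosomal genes, DoubletFinder 2.0.3) were not applied to the deposited counts, which include barcodes of 1 UMI.

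UMI counts were summed per library and class with numpy 2.4.6, scipy 1.17.1 and pandas 2.3.3. Levels are UMIs of a gene per 1000000 UMIs of its class (CPM). Levels relative to the subunit median are log2 values with 0.5 added to each count. Shares carry Clopper-Pearson and ratios conditional binomial intervals at 95%, checked on simulated counts. Genes with at least 50 UMIs over both libraries were compared, with counts of 0 set to 3. Doublets were not removed, except in an alternative in which Scrublet (scanpy) scores marked 0.8% per 1000 barcodes. Named genes are the 5 highest and lowest in level, those past 2-fold, the 5 farthest from the members' median in each direction of each comparison, the 5 with the largest range across classes, the P stalk, paralogs and other symbols, and the 3 highest of other lists. Partners of paralogs and other genes were named beyond this rule after their values were seen. Members and lists were chosen with earlier results of these data known. The dendritic, smooth muscle and B or plasma classes held 0 to 21 barcodes a library and were not compared. All 86 gene IDs matched GENCODE M21. Some genes that the naming rule takes are not reported here.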

Additional observations from a re-analysis of the deposited data

Results flagged for a closer look

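The ribosomal protein share moved in opposite directions between classes in MSC-treated over untreated MRL/lpr mice. Its log2 ratio was 0.39 in mesangial or stromal-like, 0.12 in T or NK-like and 0.072 in endothelial-like barcodes, but -0.036 in podocyte-like and -0.023 in mononuclear phagocyte-like barcodes. With 1 library per condition the difference between classes was not tested. The podocyte-like value rests on 165 barcodes of MSC-treated mice, and the signs of the podocyte-like, mononuclear phagocyte-like and T or NK-like values changed in barcodes of 4000 to 8000 UMIs.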

How the results depend on the processing

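The log2 ratio of the ribosomal protein share, MRL/lpr over control, was above 0 in all 5 classes under each of the 12 alternatives run. In endothelial-like barcodes it was 0.39, and 0.387 with at least 500 UMIs, 0.397 with at least 2000, 0.415 with 200 to 3000 genes, 0.414 with a stricter gate, 0.394 without Scrublet doublets, 0.396 with free RNA subtracted, 0.379 without mitochondrial UMIs, 0.386 as the mean of barcodes, 0.383 for subunit proteins only and 0.422 at 4000 to 8000 UMIs, a setting chosen after seeing the data. In mesangial or stromal-like barcodes it was 0.381 with at least 2000 UMIs, 0.435 with 200 to 3000 genes, 0.395 with a stricter gate, 0.354 without Scrublet doublets and for subunit proteins only, 0.314 with free RNA subtracted, 0.356 without mitochondrial UMIs, 0.352 as the mean of barcodes and 0.499 at 4000 to 8000 UMIs. MSC-treated over MRL/lpr, the endothelial-like value was 0.069 with at least 500 UMIs, 0.086 with at least 2000, 0.075 with free RNA subtracted, 0.054 as the mean of barcodes and 0.108 at 4000 to 8000 UMIs, and the mesangial or stromal-like value 0.405 with at least 2000 UMIs, 0.408 at up to 5% mitochondrial UMIs, 0.366 with 200 to 3000 genes, 0.375 with a stricter gate, 0.431 with free RNA subtracted and 0.355 as the mean of barcodes. Signs reversed in podocyte-like (0.033 with 200 to 3000 genes, 0.00068 as the mean of barcodes, 0.068 at 4000 to 8000 UMIs), mononuclear phagocyte-like (0.027 at 4000 to 8000 UMIs) and T or NK-like barcodes (-0.34 at 4000 to 8000 UMIs), and the cause was not tested. Members past 2-fold higher in endothelial-like barcodes, MRL/lpr over control, numbered 3 in place of 5 among subunit proteins only and with the median of all genes set to 0, and 23 at 1.5-fold, where 3 in place of 1 were lower. In other classes the higher count ranged from 0 to 21 in mesangial or stromal-like, 2 to 16 in podocyte-like, 0 to 15 in mononuclear phagocyte-like and 3 to 9 in T or NK-like barcodes, and the lower count from 0 to 3, 0 to 3, 1 to 4 and 2 to 12. Both higher counts of 0 came with subunit proteins only, which leaves out the paralogs. Of all 723 alternative values, 404 stayed within the counting interval or count limit, 314 moved and 5 reversed. No paired analysis was possible because each condition had 1 library. Leaving out a library was not possible for the same reason, and intervals cover counting error only.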

Other observations

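Barcodes that the marker rule placed in no class, 1902 in the control, 5592 in MRL/lpr and 7078 in MSC-treated mice, had ribosomal protein shares of 7.92%, 11.7% and 13.3%. Their median depths were 9229.5, 3286.5 and 2263.5 UMIs. Within them *Rpl22l1* gave 29.6%, 44.8% and 36.8% of the UMIs of *Rpl22l1* and *Rpl22*, and *Rpl3l* had 13, 434 and 446 UMIs.

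Smooth muscle and renin-like barcodes, of which there were 10, 21 and 13, had ribosomal protein shares of 7.38%, 11.1% and 12.6%.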
